A study of Mus musculus with 6 samples.

Results

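Expression of 10 genes of insulin receptor signalling was examined in mouse liver after a high-fat, fructose-rich regimen. The genes were chosen by name for their roles: the insulin receptor Insr, its substrates Irs1 and Irs2, the PI3K subunit Pik3r1, the kinases Akt1 and Akt2, the receptor inhibitor Grb14, the binding-protein genes Igfbp1 and Igfbp2, and the kinase Sik1. The choice was made with earlier results of these data known. All 10 were found by symbol among the 20107 genes of the count table, and all 10 passed the filter on low counts that left 14896 genes for testing. The livers came from 6 male C57BL/6N wild-type littermates aged 16 weeks. The HFHC group (replicates 1, 2 and 3) had eaten, at will from 8 weeks of age and for 8 weeks, a high-calorie food rich in fat and containing fructose, with a high-fructose drink. The Chow group (replicates 7, 8 and 9) had eaten chow over the same weeks. The food and the drink were given together, so their effects cannot be told apart, and the sources used here give neither the hour of sampling nor whether the mice had been fasted.

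When insulin binds its receptor on hepatocytes, the receptor phosphorylates the docking proteins IRS1 and IRS2. These recruit PI3K, whose regulatory subunit is encoded by Pik3r1, and PI3K in turn activates AKT kinases. AKT keeps FOXO transcription factors out of the nucleus, which lowers the transcription of fasting genes such as Igfbp1, and hepatic Irs2 is likewise high in fasting and low after feeding.

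Irs1 and Igfbp2 fell in HFHC livers, and none of the other 8 genes passed the test. Irs1 averaged 22.4 ± 5.37 CPM (counts scaled to library size) in HFHC livers and 41.9 ± 3.82 CPM in Chow livers (SD, n = 3 each). Igfbp2 averaged 154 ± 26.6 CPM in HFHC livers and 323 ± 103 CPM in Chow livers. Thus 2 of 10 genes passed at an adjusted p under 0.05, both lower, beside 6.67% of all genes tested in either direction, 3.38% higher and 3.3% lower. The same 2 genes were the ones whose libraries did not overlap between the diets, as was so for 27.8% of all tested genes. No member was higher in edgeR's quasi-likelihood test, in DESeq2 or in limma-voom with or without sample weights, and none was higher at an unadjusted p under 0.05. At that unadjusted threshold 4 of the 10 genes were lower, beside 22.2% of all tested genes in either direction. Igfbp1 varied widely among the Chow livers and did not pass, with Chow replicate 8 below every HFHC liver. Across the 10 genes the median log2 fold change (HFHC over Chow) was -0.32, and over all tested genes it was -0.003. Because the genes were chosen with earlier results known, these shares and medians describe the 10 genes and are no test of the set.

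**Figure D1:**
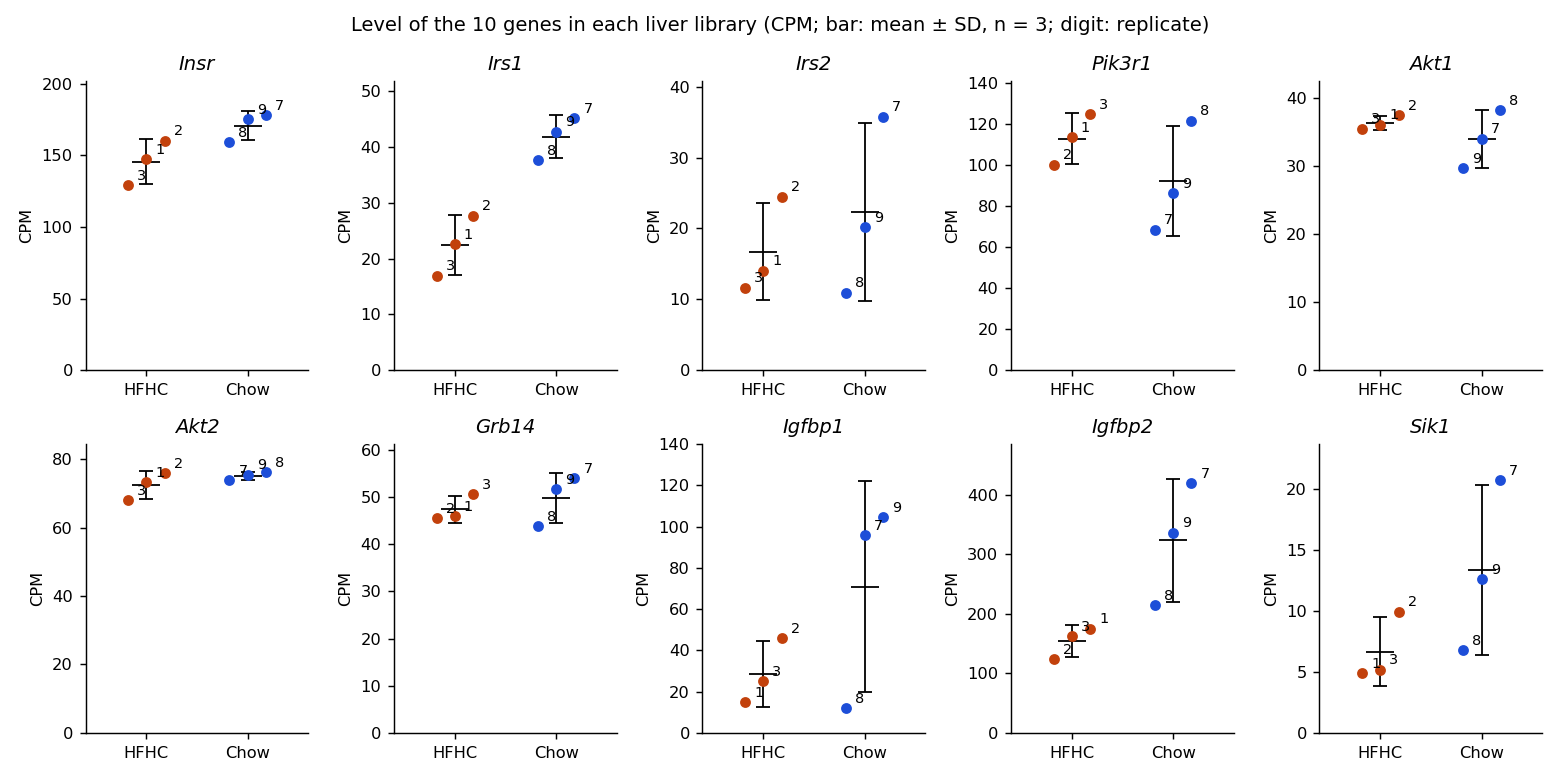
Level of each of the 10 genes (y axis, CPM from 0) in every library, HFHC at the left and Chow at the right of each panel. Points are libraries with their replicate number, and bars are the mean ± SD of 3 libraries. Irs1 and Igfbp2 show no overlap between the diets, while Chow replicate 8 lies among or below the HFHC libraries for Igfbp1, Irs2 and Sik1.

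The upstream sequences of the genes that fell or varied most are shown because FOXO factors act on Igfbp1 through an insulin response element in its promoter. RefSeq windows (GRCm38.p6, 250 bases before to 50 bases after a transcription start) were found for 8 of the 10 genes, and none for Insr and Sik1. Windows are written 5′ to 3′ on the gene's strand. Capitals mark CAAAACA, the core of the insulin response element, on either strand (TGTTTTG where it lies on the opposite strand) in Igfbp1, Irs1 and Irs2, and the E-box CACGTG in Igfbp2.
Igfbp1, chr11:7197537-7197836, plus strand: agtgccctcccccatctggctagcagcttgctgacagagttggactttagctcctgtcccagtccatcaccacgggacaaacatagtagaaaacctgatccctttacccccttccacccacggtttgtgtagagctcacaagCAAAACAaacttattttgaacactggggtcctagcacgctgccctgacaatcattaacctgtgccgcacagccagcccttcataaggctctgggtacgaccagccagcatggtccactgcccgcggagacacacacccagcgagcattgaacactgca
Irs1, chr1:82291390-82291689, minus strand: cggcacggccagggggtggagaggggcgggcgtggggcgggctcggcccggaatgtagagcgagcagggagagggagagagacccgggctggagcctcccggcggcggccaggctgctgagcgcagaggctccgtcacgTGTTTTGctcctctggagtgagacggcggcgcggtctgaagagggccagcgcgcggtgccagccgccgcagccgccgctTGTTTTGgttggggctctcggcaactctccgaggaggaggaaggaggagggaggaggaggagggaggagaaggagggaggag
Irs2, chr8:11008880-11009179, minus strand: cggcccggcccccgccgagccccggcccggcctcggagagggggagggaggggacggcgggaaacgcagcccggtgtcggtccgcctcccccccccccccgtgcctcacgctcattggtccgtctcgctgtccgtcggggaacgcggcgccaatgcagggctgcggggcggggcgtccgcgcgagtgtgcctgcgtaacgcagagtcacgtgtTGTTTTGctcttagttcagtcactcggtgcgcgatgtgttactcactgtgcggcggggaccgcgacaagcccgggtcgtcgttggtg
Igfbp2, chr1:72824230-72824529, plus strand: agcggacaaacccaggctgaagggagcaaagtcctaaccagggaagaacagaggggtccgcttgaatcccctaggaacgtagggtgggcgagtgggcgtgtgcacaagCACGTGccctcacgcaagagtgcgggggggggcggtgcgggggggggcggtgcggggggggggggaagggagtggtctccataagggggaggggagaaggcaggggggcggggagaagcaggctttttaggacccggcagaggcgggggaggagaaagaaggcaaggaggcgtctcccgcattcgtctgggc

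CAAAACA was searched on both strands and was present in 3 of the 14 windows of the 8 genes, 1 each of Igfbp1, Irs1 and Irs2, against 6.28% of all 32851 windows. In Igfbp1 it began 108 bases before the start site and opened the 18-base run CAAAACAAACTTATTTTG, which was found on either strand in 1 of the 32851 windows, that of Igfbp1. A run of 18 bases is rare whatever its letters, so this count does not set the element apart. In Irs1 CAAAACA occurred at 111 and at 32 bases before the start site, the first sharing bases with the E-box at 115, and in Irs2 at 37 bases. The Irs2 window, from 11008880, lies wholly upstream of the gene in GENCODE M21, which ends at 11008458. Its positions therefore hold for the RefSeq start only. The FOXO core TGTTTAC was in 1 window, of Akt1, at 161 bases before the start site, against 3.65% of all windows, and the cAMP response element TGACGTCA was in none of the 14 windows, against 1.79%. CACGTG was in 3 of the 14 windows, those of Igfbp2 (142 bases before the start site), Irs1 and Irs2 (44 bases), against 7.15% of all windows. These are matches of letters and do not show that a factor bound there.

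Per length of exon, Igfbp2 was the most abundant of the 10 transcripts and Sik1 the least. Igfbp2 stood at 83.3 ± 14.4 CPM per kilobase in HFHC and 175 ± 55.8 CPM per kilobase in Chow, and its range did not meet that of Igfbp1, which came next at 18.7 ± 10.4 and 46.4 ± 33.5 CPM per kilobase. Insr, Akt2, Pik3r1, Akt1 and Grb14 followed, with means between 6.59 and 11.2 CPM per kilobase in HFHC and between 6.93 and 12.4 in Chow. The range of Igfbp1 met that of the next gene in both diets, and Insr and Akt2 did not overlap in Chow and did in HFHC. In HFHC, Akt2, Akt1 and Grb14 lay apart from one another. In Chow the ranges of Akt2, Pik3r1, Akt1 and Grb14 each met the next in the order. Irs1, Irs2 and Sik1 had the lowest levels, with means of 2.45, 2.65 and 1.3 CPM per kilobase in HFHC and 4.58, 3.53 and 2.61 in Chow, and neighbours among them overlapped in both diets. In the order of means Irs1 came after Irs2 in HFHC and before it in Chow.

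**Figure D2:**
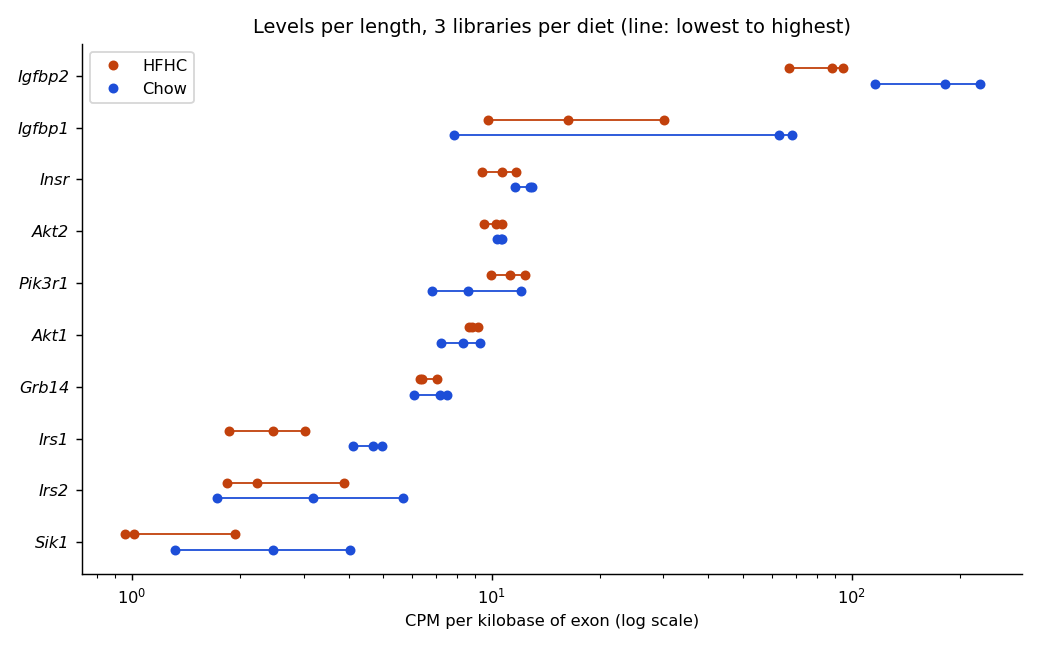
Level per kilobase of exon (x axis, CPM per kilobase, log scale) of the 10 genes, with HFHC libraries above Chow libraries for each gene and a line from the lowest to the highest of 3 libraries. Genes run from Igfbp2 at the top, at 83.3 and 175 CPM per kilobase on average in HFHC and Chow, to Sik1 at the bottom, at 1.3 and 2.61.

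Insr encodes the receptor itself and lies on chromosome 8 at 3122061 to 3279617 (mm10, minus strand). It had 147, 160 and 129 CPM in HFHC replicates 1, 2 and 3, against 178, 159 and 175 CPM in Chow replicates 7, 8 and 9. HFHC replicate 2 lay just above Chow replicate 8, so the diets overlapped. The log2 fold change of -0.23 ± 0.10 (SE) did not pass (adjusted p = 0.193). After correction of each library for GC content and transcript length it stood at -0.065 (adjusted p = 0.668).

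The gene Irs1, for a docking protein that links the receptor to PI3K, occupies chromosome 1 at 82233101 to 82291416 (minus strand). Its levels were 22.6, 27.7 and 17 CPM in HFHC replicates 1, 2 and 3, against 45.2, 37.7 and 42.7 CPM in Chow replicates 7, 8 and 9. Every HFHC library lay below every Chow library, as did those of 14.3% of all tested genes. Irs1 fell by 0.90 ± 0.16 on the log2 scale, to 0.536 times the Chow level (edgeR's quasi-likelihood test, Benjamini-Hochberg adjusted p = 0.0117), and it passed whichever of the 6 libraries was left out (adjusted p 0.00668 to 0.0491). The log2 fold change was -0.79 after correction for GC content and length (adjusted p = 0.00886). In whole livers, fewer cells of a type and less RNA per cell cannot be told apart. Gm9747, a gene on the opposite strand that covers 30.9% of the exonic bases of Irs1, held 1 count in all HFHC libraries together, against 7 in the Chow libraries.

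Irs2 encodes the other main docking protein of hepatocytes. The gene lies on chromosome 8 at 10984681 to 11008458 (minus strand) and had 14.1, 24.5 and 11.6 CPM in HFHC replicates 1, 2 and 3, against 35.8, 10.9 and 20.2 CPM in Chow replicates 7, 8 and 9. The lowest library of all 6 was Chow replicate 8 and the highest was Chow replicate 7, so the HFHC values lay within the Chow range. The log2 fold change of -0.41 ± 0.39 did not pass (adjusted p = 0.590) and was 0.11 without Chow replicate 7.

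The log2 ratio of Irs2 to Irs1 counts within a library, which needs no size factor, averaged -0.47 ± 0.26 in HFHC and -1.07 ± 0.73 in Chow (SD, n = 3 each). The difference was 0.60 (exact two-sided permutation test over 20 assignments, p = 0.3, where 3 against 3 libraries allow no p below 0.1). The libraries overlapped, with Chow replicate 7 at -0.34 between the HFHC values of -0.69 and -0.18. A difference in response between the genes was therefore not shown.

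Pik3r1 encodes p85 alpha, the regulatory subunit that brings PI3K to the docking proteins, and lies on chromosome 13 at 101680563 to 101768217 (minus strand). Its values were 114, 100 and 125 CPM in HFHC replicates 1, 2 and 3, against 68.6, 122 and 86.4 CPM in Chow replicates 7, 8 and 9. All 3 HFHC livers were above Chow replicates 7 and 9, and Chow replicate 8 lay among them. With all libraries the log2 fold change was 0.29 ± 0.18 (adjusted p = 0.394), and without Chow replicate 8 it was 0.55 and passed (adjusted p = 0.0349). With any other single library left out it did not pass (adjusted p 0.36 to 0.774), and without Chow replicate 7 it was 0.12.

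Neither Akt1 nor Akt2, kinases that carry the signal on from PI3K, passed the test. Akt1, on chromosome 12 at 112653821 to 112674884 (minus strand), had 36, 37.4 and 35.4 CPM in HFHC replicates 1, 2 and 3, against 34, 38.1 and 29.7 CPM in Chow replicates 7, 8 and 9. For Akt2, the main isoform of insulin action on glucose, on chromosome 7 at 27591552 to 27640826 (plus strand), the values were 73.3, 75.9 and 68.1 CPM in HFHC, against 73.9, 76.1 and 75.5 CPM in Chow. The diets overlapped for both genes, and the log2 fold changes were 0.10 ± 0.10 (adjusted p = 0.617) and -0.05 ± 0.08 (adjusted p = 0.731). Among the Chow livers the SD of log2 CPM of Akt2 was 0.02, larger than in only 2.42% of 14875 ranked genes. The log2 ratio of Akt2 to Akt1 counts averaged 1.0 ± 0.05 in HFHC and 1.16 ± 0.18 in Chow (difference -0.16, exact permutation p = 0.3).

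Grb14 encodes an adaptor that binds the active insulin receptor and blocks its kinase, and lies on chromosome 2 at 64912476 to 65024987 (minus strand). It had 46, 45.5 and 50.6 CPM in HFHC replicates 1, 2 and 3, against 53.9, 43.8 and 51.7 CPM in Chow replicates 7, 8 and 9. The 3 HFHC values lay within the range of the Chow values, and the log2 fold change was -0.07 ± 0.10 (adjusted p = 0.718).

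Igfbp1 encodes a secreted protein that binds insulin-like growth factors and is a classic insulin-repressed gene of liver. It lies on chromosome 11 at 7197782 to 7202546 (plus strand) and had 14.9, 45.9 and 24.9 CPM in HFHC replicates 1, 2 and 3, against 95.8, 12 and 104 CPM in Chow replicates 7, 8 and 9. Chow replicates 7 and 9 were far above all HFHC livers, and Chow replicate 8 was below all of them. The highest Chow library held 8.73 times the level of the lowest, and the highest HFHC library 3.09 times that of the lowest. The SD of log2 CPM within Chow was 1.77, larger than in 99.8% of 14875 ranked genes, and within HFHC it was 0.81, larger than in 98.2%.

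With that spread the log2 fold change of Igfbp1 was -1.31 ± 0.65 and did not pass (adjusted p = 0.274). Without Chow replicate 8 it was -1.80 and passed (adjusted p = 0.0158). With any other single library left out it did not pass (adjusted p 0.212 to 0.551).

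Igfbp2, on chromosome 1 at 72824503 to 72852474 (plus strand), encodes another secreted IGF-binding protein. It had 175, 124 and 163 CPM in HFHC replicates 1, 2 and 3, against 419, 214 and 336 CPM in Chow replicates 7, 8 and 9. No HFHC library reached the lowest Chow library, which was again replicate 8. Igfbp2 fell by 1.07 ± 0.22 on the log2 scale, to 0.476 times the Chow level (adjusted p = 0.0220). The call was lost in the fits without HFHC replicate 2 (adjusted p = 0.0726), HFHC replicate 3 (0.0614), Chow replicate 7 (0.0727) or Chow replicate 9 (0.0643), with log2 fold changes of -0.93, -1.11, -0.84 and -1.04. Counts were not whole numbers in all 6 libraries for Igfbp2 and Akt2, in 4 for Pik3r1 and in 2 for Insr, so some of their reads may be shared with other loci and their levels are uncertain.

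Relative to each other, Igfbp2 and Igfbp1 did not shift in 1 direction. The log2 ratio of Igfbp2 to Igfbp1 counts was 3.56, 1.43 and 2.71 in HFHC replicates 1, 2 and 3, against 2.13, 4.16 and 1.69 in Chow replicates 7, 8 and 9 (mean difference -0.09, exact permutation p = 0.9).

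Sik1 encodes a salt-inducible kinase that is switched on by cAMP and CREB and restrains gluconeogenic transcription, and lies on chromosome 17 at 31844250 to 31855804 (minus strand). It had 4.9, 9.96 and 5.2 CPM in HFHC replicates 1, 2 and 3, against 20.8, 6.78 and 12.6 CPM in Chow replicates 7, 8 and 9. Chow replicates 7 and 9 were above all HFHC livers and Chow replicate 8 was among them. The log2 fold change of -1.0 ± 0.38 did not pass (adjusted p = 0.162). Without Chow replicate 8 it was -1.31 and passed (adjusted p = 0.0331). With any other single library left out it did not pass (adjusted p 0.0957 to 0.479), and without Chow replicate 7 it was -0.54.

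**Figure D3:**
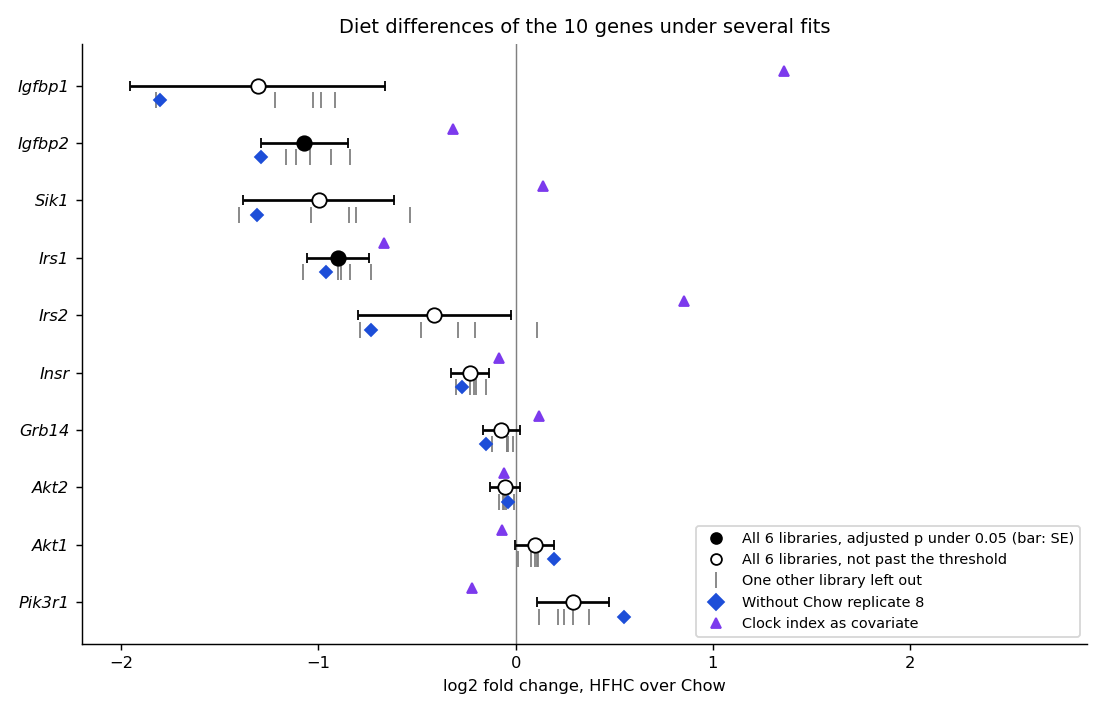
Log2 fold change (x axis, HFHC over Chow) of the 10 genes, with circles for all 6 libraries and bars for the SE, filled where the adjusted p was under 0.05. Grey ticks leave out 1 other library, diamonds leave out Chow replicate 8, and triangles add an index of clock phase. Irs1 at -0.90 and Igfbp2 at -1.07 are filled, and the triangles of Igfbp1 (1.36) and Irs2 (0.86) lie on the other side of 0.

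Chow replicate 8 stood at an end of the Chow livers for every one of these genes, as it did for 73.9% of all tested genes. It lay apart from the other Chow livers over all genes too, at -30.4 on the second principal component of log2 CPM (16.6% of the variance), against 11.2 and 11.9 for Chow replicates 7 and 9. It was the lowest Chow library for 7 of the 10 genes and the highest for the other 3, Pik3r1, Akt1 and Akt2. Without it 5 of the 10 genes passed, Irs1, Igfbp2, Igfbp1 and Sik1 lower and Pik3r1 higher, beside 7.09% of the 15232 genes tested in that fit. With any other single library left out 1 or 2 of the 10 genes passed. Chow replicate 8 was also apart from the other Chow livers in some of the 8 clock genes listed. Per2 had 19.8, 28.3 and 23.5 CPM in HFHC replicates 1, 2 and 3, against 6.72, 24.5 and 9.62 CPM in Chow replicates 7, 8 and 9. Arntl, the opposite arm of the clock, had 7.89, 4.8 and 4.66 CPM in the HFHC livers, against 15.8, 6.2 and 13.3 CPM in the Chow livers, so for both genes Chow replicate 8 was nearest to the HFHC libraries. In Per2 and Arntl it also lay among the HFHC livers, which was not so for Clock. Clock had 61, 59.9 and 56 CPM in HFHC, against 90.2, 81.9 and 95.2 CPM in Chow replicates 7, 8 and 9. There Chow replicate 8 was again the Chow liver nearest to HFHC but stood above every HFHC liver. For Nr1d1 Chow replicate 8 (73 CPM) lay between Chow replicates 7 (87.9 CPM) and 9 (69.5 CPM).

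An index of clock phase was taken as the mean log2 CPM of 3 genes of the Per arm (Per2, Per3, Dbp) less the mean of 3 opposite genes (Arntl, Npas2, Clock), centred over the libraries. It stood at 0.46, 1.18 and 1.45 in HFHC replicates 1, 2 and 3, against -2.07, 0.50 and -1.53 in Chow replicates 7, 8 and 9. Dbp (adjusted p = 0.0306) and Clock (adjusted p = 0.00449), both part of the index, themselves passed between the diets in edgeR's test. The index thus carries part of the diet difference. With this index as a covariate none of the 10 genes passed in the edgeR fit, and 0.436% of all tested genes did. Irs1 then stood at -0.67 (adjusted p = 0.352) and Igfbp2 at -0.32 (adjusted p = 0.631). In the other 5 livers the index separated the diets, and there diet and clock phase cannot be told apart.

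In Igfbp1, Irs2 and Sik1, as in Insr and Irs1, HFHC replicate 2 was the highest HFHC liver and Chow replicate 8 the lowest Chow liver, while the full order of the 6 livers differed among Igfbp1, Irs2 and Sik1. Likeness of profile was measured as the root mean square difference of log2 CPM, centred for each gene, over the 6 libraries, a measure that favours genes varying as widely as Igfbp1. By the naming rule the closest of 9788 genes were Arl4d (0.43), the metallothionein gene Mt1 (0.46) and Trib3 (0.68), whose product binds AKT, against a root mean square of 1.22 for Igfbp1 itself. Sik1 (0.68) and Irs2 (0.78) ranked 5 and 11 when unnamed gene models were counted too, and G6pc, the glucose-6-phosphatase gene of gluconeogenesis, ranked 12 (0.79). Igfbp2 (0.98) ranked 74, Pck1 (0.99) 79 and Pik3r1 (1.49) 9599. The ranks of these last 6 were looked up after their values had been seen.

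Trib3 had 5.19, 6.44 and 4.76 CPM in HFHC replicates 1, 2 and 3, against 12.8, 3.95 and 10.2 CPM in Chow replicates 7, 8 and 9, and its log2 fold change of -0.71 ± 0.34 did not pass (adjusted p = 0.258). G6pc had 304, 633 and 395 CPM in HFHC, against 725, 334 and 601 CPM in Chow. In both genes Chow replicate 8 was well below the other Chow livers. Pck1, the other key gene of gluconeogenesis, had 818, 1790 and 1171 CPM in HFHC, against 2222, 2085 and 2362 CPM in Chow, so Chow replicate 8 stayed near the other Chow livers.

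For Irs1 the closest profiles were those of Simc1 (0.10), Lrit2 (0.11) and Emp2 (0.14), against a root mean square of 0.51 for Irs1 itself. Simc1 had 6.01, 7.27 and 5.4 CPM in HFHC replicates 1, 2 and 3, against 13.7, 10.8 and 11.7 CPM in Chow replicates 7, 8 and 9. Their lower level in HFHC follows from the choice of profiles close to that of Irs1 and is given as a description, with log2 fold changes of -0.95, -0.82 and -0.84.

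**Figure D4:**
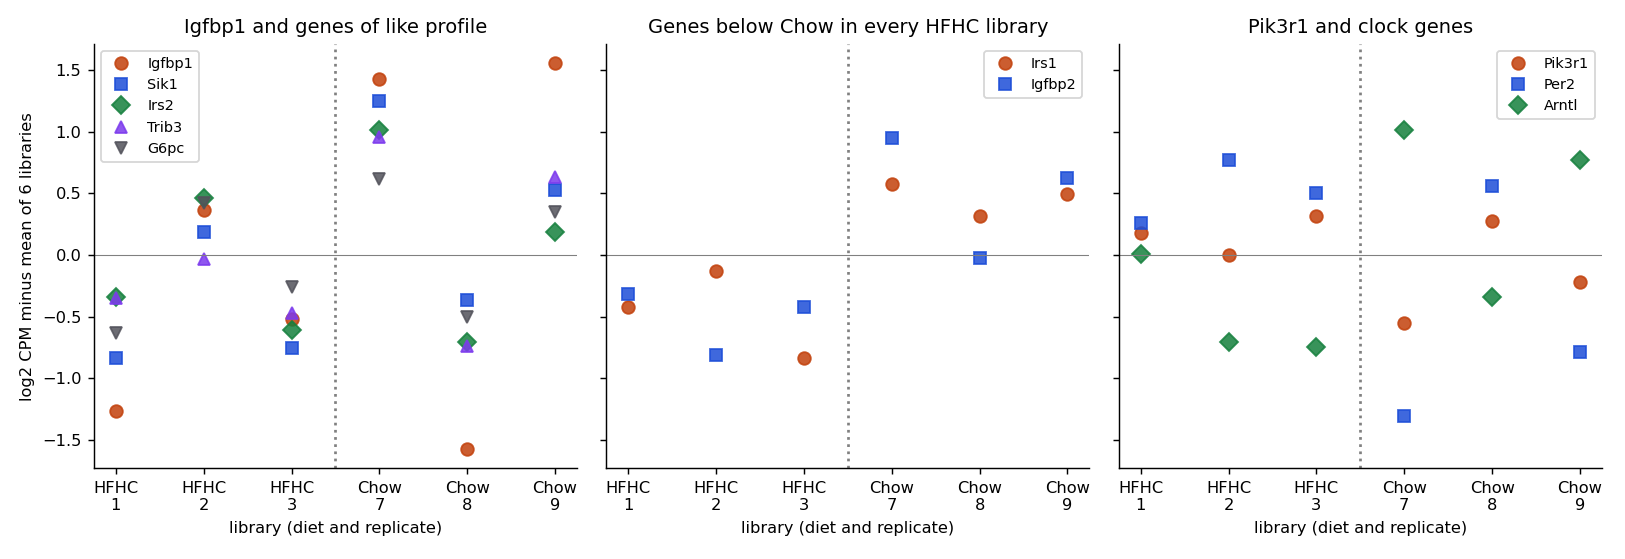
Log2 CPM of single genes minus their mean over the 6 libraries (y axis), by library (x axis, HFHC at the left of the dotted line, Chow at the right). In the left panel Igfbp1, Sik1, Irs2, Trib3 and G6pc are low in Chow replicate 8 (Igfbp1 at -1.57), in the middle panel Irs1 and Igfbp2 are lower in every HFHC library, and in the right panel Per2 is lowest and Arntl highest in Chow replicates 7 and 9, where Pik3r1 is also lowest.

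Beyond the 10 genes, 124 entries in 7 lists of the wider pathway were looked up, of which 118 could be tested. Of these, 5 rose and 3 fell, or 6.78%, near the 6.67% of all tested genes. The counts at an unadjusted p under 0.05 given for each list stand beside 22.2% of all tested genes in either direction. Counts by other tools stand beside each tool's own calls over all 14896 genes. DESeq2 called 599 higher and 660 lower, limma-voom 469 and 485, and limma-voom with sample weights 704 and 790. In the list of receptor and adaptor genes (Igf1r, Shc1, Grb2, Grb10, Gab1 and others) none of 16 passed in edgeR's test, 0 were higher and 3 lower at an unadjusted p under 0.05, and the median log2 fold change was -0.11. DESeq2 called 1 lower, limma-voom 0, and limma-voom with sample weights 2 lower. The smallest p belonged to Sos1, the exchange factor that leads to RAS, with 49.9 ± 4.14 CPM in HFHC livers and 62.2 ± 3.49 CPM in Chow livers (log2 fold change -0.32 ± 0.09, adjusted p = 0.0610).

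Among 26 genes of the PI3K, AKT and mTOR branch, 1 fell and none rose, with a median of 0.02. Rictor, the defining subunit of the mTORC2 complex that phosphorylates AKT, averaged 23.1 ± 0.73 CPM in HFHC livers and 33.5 ± 4.43 CPM in Chow livers and fell by 0.54 ± 0.10 on the log2 scale (adjusted p = 0.0177). Rictor no longer passed without HFHC replicate 1 or 3 or Chow replicate 7 or 9 (adjusted p up to 0.0723), after correction for GC content and length (-0.32, adjusted p = 0.0889), or with the clock index (adjusted p = 0.534). At an unadjusted p under 0.05, 4 genes of the branch were higher and 5 lower. DESeq2 called 1 higher and 2 lower, limma-voom 0 and 1, and its weighted form 2 and 3.

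Of 22 inhibitors of insulin signalling none passed in edgeR's test, 2 were higher and 3 lower at an unadjusted p under 0.05, and the median was -0.09. DESeq2 called 1 lower, limma-voom none, and its weighted form 1 higher and 2 lower. Mapk8, which encodes the stress kinase JNK1, had the smallest p, with 23.3 ± 0.47 CPM in HFHC livers and 28.1 ± 0.86 CPM in Chow livers (-0.27 ± 0.08, adjusted p = 0.0627). The phosphatase gene Ptpn1 averaged 22.1 ± 2.29 CPM in HFHC livers and 21.2 ± 2.91 CPM in Chow livers, and Socs3 averaged 5.04 ± 1.34 and 5.53 ± 3.46 CPM.

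Among 15 FOXO factors and FOXO targets, 1 rose and none fell, with a median of -0.17. At an unadjusted p under 0.05, 2 were higher and 2 lower. DESeq2 called 2 higher and 0 lower, limma-voom 1 and 0, and its weighted form 2 and 1. Apoc3, an apolipoprotein that inhibits lipoprotein lipase, rose to 1190 ± 146 CPM in HFHC, against 831 ± 25.5 CPM in Chow (0.52 ± 0.10, adjusted p = 0.0187), and failed to pass without HFHC replicate 1 or Chow replicate 7 or 9 (adjusted p up to 0.0710) or with the clock index (0.310). Foxo1 itself averaged 41.2 ± 6.14 CPM in HFHC livers and 48.2 ± 8.16 CPM in Chow livers, and the diets overlapped.

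The list of insulin-induced hepatic genes had the most calls, with 4 of 11 higher, none lower and a median of 1.17. Among all tested genes 3.38% were higher. At an unadjusted p under 0.05, 7 were higher and 1 lower, beside 22.2% of all tested genes in either direction. DESeq2, limma-voom and its weighted form called 4, 5 and 7 higher and none lower, beside 599, 469 and 704 higher over all 14896 genes. Without Chow replicate 8 the list had 8 genes called higher, and with the clock index as covariate 0. Of all genes in those fits, 7.09% and 0.436% were called in either direction.

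Me1, the cytosolic malic enzyme, rose by 1.54 ± 0.24 on the log2 scale (adjusted p = 0.00774) and Acly, the ATP citrate lyase, by 0.93 ± 0.21 (adjusted p = 0.0336). Pnpla3, the third called gene named here, had 171, 121 and 88 counts in HFHC replicates 1, 2 and 3, against 4, 14 and 4 counts in Chow replicates 7, 8 and 9. It passed the filter on low counts through the HFHC libraries, so its call and fold change carry little weight. The counts of genes that rose, 5 over all lists and 4 of 11 in this one, include Pnpla3. Me1 passed whichever library was left out, and none of the 3 passed with the clock index as covariate. Acly did not pass without HFHC replicate 1 or 2 or Chow replicate 7 or 9 (adjusted p up to 0.119). Srebf1, a main mediator of the insulin response of this list, averaged 228 ± 12.2 CPM in HFHC livers and 207 ± 29 CPM in Chow livers and did not pass. Several of these genes also respond to fructose and to the carbohydrate sensor ChREBP.

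Of 19 SIK, CRTC and CREB genes, 1 fell and none rose, with 1 higher and 3 lower at an unadjusted p under 0.05. DESeq2 called 1 higher and 1 lower, limma-voom 0 and 1, and its weighted form 1 and 1. Creb1, for the cAMP-responsive factor that drives Sik1, fell by 0.33 ± 0.08 (adjusted p = 0.0349), but passed neither in any of 6 leave-one-out fits (adjusted p 0.0534 to 0.114) nor without the count filter (0.0541) nor with the clock index (0.339), and stood at -0.09 after correction for GC content and length. Sik2 averaged 11 ± 0.97 CPM in HFHC livers and 10.7 ± 1.17 CPM in Chow livers, Sik3 averaged 45.2 ± 5.19 and 46.8 ± 2.21 CPM, and for both the diets overlapped.

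In the remaining list of IGF-binding protein and IGF genes, 1 of 9 fell and none rose, and 1 was higher and 1 lower at an unadjusted p under 0.05. DESeq2 and both limma-voom fits called 0 higher and 1 lower each. Igf1, the growth factor bound by the IGFBP proteins, fell by 0.35 ± 0.08 (adjusted p = 0.0376) to 564 ± 30.1 CPM in HFHC, against 719 ± 34.9 CPM in Chow, but passed in 1 of 6 leave-one-out fits, that without HFHC replicate 3, and stood at -0.12 after correction for GC content and length. It did not pass with upper-quartile factors (adjusted p = 0.0566) or the clock index (0.468) either. Igfbp4 averaged 1156 ± 62.1 CPM in HFHC livers and 1108 ± 47.8 CPM in Chow livers, and Igfbp3 averaged 17.9 ± 2 and 20.1 ± 1.08 CPM.

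**Figure D5:**
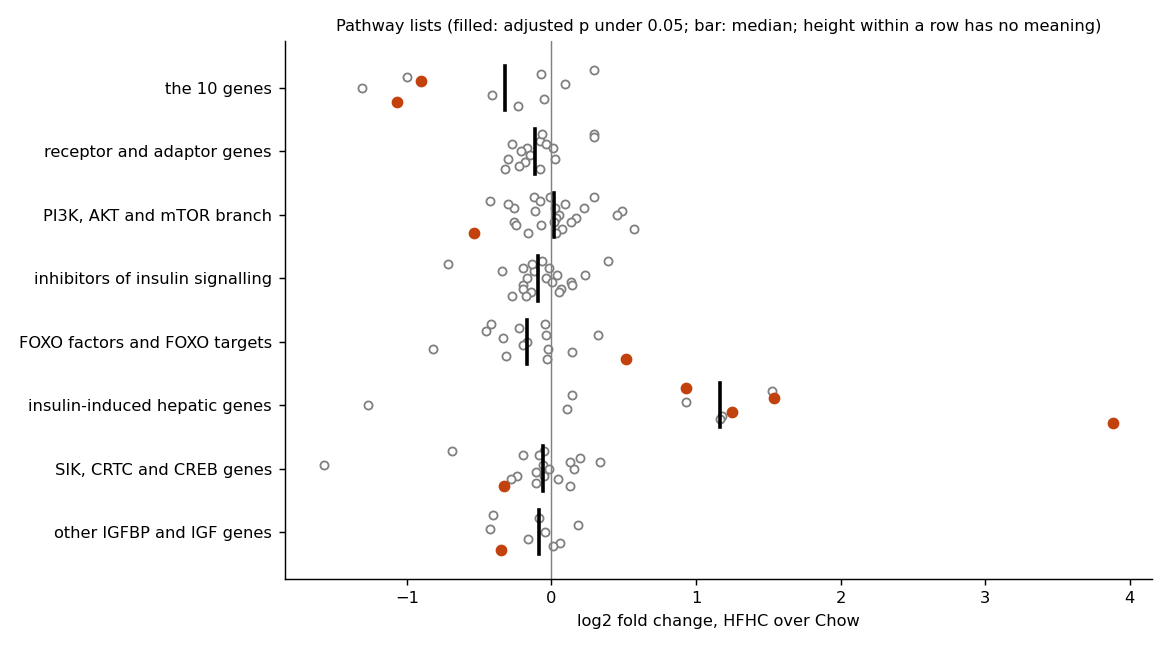
Log2 fold change (x axis, HFHC over Chow) of the 10 genes and of the tested genes of 7 pathway lists, 1 point per gene, filled where the adjusted p was under 0.05, with a bar at each list's median. The 10 genes have a median of -0.32, the insulin-induced hepatic genes one of 1.17, and the other 6 lists lie between -0.17 and 0.02.

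The libraries held 30096409 to 30871297 counts in HFHC and 26767416 to 27339613 in Chow. Hepatocyte markers, of which 6 of 7 could be summed, came to 75700 to 78700 CPM in HFHC and 67800 to 86500 CPM in Chow, with Cps1 lower in HFHC. No Kupffer, endothelial, stellate or cholangiocyte marker passed in edgeR's test among 7, 7, 7 and 5 tested. At an unadjusted p under 0.05 these sets held 3, 0, 2 and 0, all higher in HFHC, beside 22.2% of all tested genes in either direction. DESeq2 called 1 stellate marker and weighted limma-voom 2, all higher. Kupffer markers summed to 239 to 294 CPM in HFHC and 199 to 237 CPM in Chow, without overlap. Among them Vsig4 (log2 fold change -0.14) and Timd4 (-0.03) went the other way. Endothelial markers summed to 230 to 247 CPM in HFHC and 238 to 243 CPM in Chow, stellate markers to 240 to 292 and 235 to 278 CPM, and cholangiocyte markers to 33.6 to 39.3 and 31.4 to 37.4 CPM. Of 5 adipocyte markers 1 could be counted, Cfd. It had 12, 53 and 12 counts in HFHC replicates 1, 2 and 3, against 0, 0 and 1 in Chow replicates 7, 8 and 9. Cfd was called higher in edgeR's test (adjusted p = 0.0226) but passed the filter through the HFHC libraries, so its call carries little weight. Of 6 pancreatic acinar markers Cela1 alone could be counted, at 24.9 to 40.2 CPM in HFHC and 26.9 to 35.9 CPM in Chow. The immediate early genes Atf3, Fosb and Btg2, 3 of 8 tested, were called higher in HFHC, beside 3.38% of all tested genes. That count includes Fosb, with 34, 26 and 23 counts in HFHC and 6, 2 and 4 in Chow. Fosb passed the filter through the HFHC libraries, so its call carries little weight. The part of other cell types and of immediate early activation in the values of the 10 genes was not tested.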

How the data were processed

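RNA from 6 livers was sequenced, 3 per diet. Per the labels' protocols, RNA was isolated with miRNeasy kits, ribosomal RNA was removed, stranded libraries were prepared with TruSeq chemistry, and a NextSeq500 read 75 bases from each end. The submitters' processing notes name STAR 2.7.3a, Partek 9 and the build mm10. The sources used here do not give the counting method, its annotation or its strand setting. The values deposited by the authors were expected counts per gene, without normalization, of which 22.4% were fractional (tolerance 0.01).

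Expected counts were rounded. Genes were filtered with filterByExpr (minimum count 10), scaled with TMM factors (0.9705 to 1.022) and tested with edgeR 4.0.16 by the quasi-likelihood F test in R 4.3.3, with Benjamini-Hochberg adjustment over all 14896 genes and a threshold of 0.05. No covariate was used. The SE was the size of the log2 fold change divided by the square root of F. The labels name littermates, so p values reflect the variation among these 6 mice alone. CPM used TMM-scaled library sizes, and 1 read stood for 0.0318 to 0.0379 CPM. Lengths and positions came from GENCODE M21 (mm10), whose starts matched the table's for all 10 genes and whose ends lie 1 base before the table's.

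The 10 genes, the lists and the tests were chosen with earlier results of these data known. Named genes were the 10, up to 4 called genes of each list by smallest p (or, in a list without calls, its gene of smallest p), the called library markers, and the 3 genes of at least 5 CPM closest in profile to Igfbp1 and Irs1. Other genes were named after their values were seen. Results of some genes the rule would name are not reported here. Alternatives used DESeq2 1.42.0, limma 3.58.1 and the settings of the closing section. On simulated data with 14896 genes for HFHC against Chow, edgeR recovered 33 of 67 genes at a true fold of 1.5, 56 of 67 at a fold of 2 and 63 of 66 at a fold of 4, with 15 of 167 calls false. Each simulated gene had the spread typical of its level, not its own. These rates therefore do not hold for genes of wide spread such as Igfbp1, Irs2 and Sik1. Ratios within libraries were compared by exact permutation. Python 3.11.15 and pandas 2.3.3 were used.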

Additional observations from a re-analysis of the deposited data

How the results depend on the processing

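Irs1 and Igfbp2 were the called members with upper-quartile or RLE factors, no count filter, DESeq2, limma-voom with or without sample weights, removal of the 10 most abundant genes, and correction for GC content and length. With the clock index as covariate 0 members, 35 higher genes and 30 lower genes were called, against 2, 503 and 491 in the reported fit. That covariate reversed Igfbp1 (1.36, adjusted p = 0.707), Irs2 (0.86), Pik3r1 (-0.22), Akt1 (-0.067), Grb14 (0.12) and Sik1 (0.14), and correction for GC content and length turned Akt1 (-0.003) and Grb14 (0.002). The cause of these changes was not tested. Weighted limma-voom called 704 genes higher and 790 lower, and upper-quartile factors gave 595 and 400. Leaving out 1 library gave 207 to 527 higher genes, 154 to 553 lower genes and 1 to 5 called members, with the lowest gene counts without Chow replicate 7 and the most members without Chow replicate 8. Irs2 ran from -0.79 to 0.11, Irs1 from -1.08 to -0.73 and Igfbp2 from -1.29 to -0.84. The paralog ratios ran from 0.24 to 0.97 (Irs2 to Irs1), -0.59 to 0.66 (Igfbp2 to Igfbp1) and -0.24 to -0.06 (Akt2 to Akt1), and a pseudocount of 0.5 left them within the spread between libraries. The lowest count of any member in a library was 154 (Sik1, HFHC replicate 1), far above a floor of 3 counts. No paired analysis was possible because the diets share no replicate number.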

Other observations

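In a few single genes Chow replicate 7 was the liver that stood out. Nr4a1, an orphan nuclear receptor induced by glucagon and cAMP in liver, had 1.3, 1.67 and 0.84 CPM in HFHC replicates 1, 2 and 3, against 8.88, 1.42 and 1.13 CPM in Chow replicates 7, 8 and 9. Egr1, an immediate early factor, had 5.73, 6.18 and 3.92 CPM in the HFHC livers, against 13.2, 3.85 and 3.96 CPM in the Chow livers. Sik1 was also highest in Chow replicate 7, at 20.8 CPM. Other genes did not share this pattern. Ppargc1a had 11, 9.51 and 7.11 CPM in HFHC livers, against 9.9, 14 and 13.1 CPM in Chow livers, and Per1 had 10.8, 15.7 and 11.4 CPM in HFHC livers, against 9.07, 12.6 and 18.6 CPM in Chow livers, so Chow replicate 7 was the lowest Chow liver for both. Fos and Atf3 stood at 0.76 and 0.46 CPM in Chow replicate 7, and for both genes every Chow liver lay below every HFHC liver. Neither Nr4a1 (adjusted p = 0.231) nor Egr1 (adjusted p = 0.644) passed between the diets in edgeR's test, and all these genes were singled out after their values were seen.

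The windows of Irs1 and Irs2 share an arrangement that was noticed only after both were printed. In each, the E-box CACGTG and the element core CAAAACA, read on either strand, begin within 10 bases of each other, 4 bases apart in Irs1 and 7 in Irs2. Such a pair was found in 9 of 32851 windows, from 8 genes. Irs1 was below Chow in every HFHC library, and Irs2 overlapped between the diets.

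Gadd45g, listed with the insulin-induced genes, ran opposite to the rest of that list, with 10.5, 6.56 and 13.5 CPM in HFHC replicates 1, 2 and 3, against 7.51, 27.6 and 38.5 CPM in Chow replicates 7, 8 and 9. The diets overlapped through Chow replicate 7, and the log2 fold change of -1.27 ± 0.48 did not pass (adjusted p = 0.153).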
